A study of Mus musculus with 7 samples.

Results

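The 7 class 3 semaphorins Sema3a, Sema3b, Sema3c, Sema3d, Sema3e, Sema3f and Sema3g, together with Sema7a, were followed across the cell types of the embryonic mouse nose in single-cell RNA sequencing. These 8 genes were chosen by name from the 29742 genes present in the tables of every library, and Sema7a is a class 7 semaphorin, held in the membrane by a lipid anchor, that is grouped with the secreted proteins here. Whole noses of mouse embryos at embryonic day 14.5 were dissociated with enzymes, frozen, thawed and captured in droplets, and each RNA molecule was counted once through its molecular identifier (UMI). Wild-type noses of the CD1 IGS strain gave 5 libraries (WT replicates 1 to 5). One nose of a line that carries a Cre recombinase at Prokr2 and a Cre-dependent tdTomato reporter at Rosa26 (ProKR2iCre/R26tdTomato) gave 2 further libraries from 1 suspension, called Prokr2Cre libraries 1 and 2. The series text speaks of fluorescence sorting for this line, but the labels do not say which of the 2 libraries was sorted, so each is given by itself, with no test. No treatment was applied in any group, and a Cre at Prokr2 marks the lineage of cells that have used that gene, not one cell type.

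WT replicates 3 and 4 shared their cell barcodes and differed by less than the sampling noise, so replicate 4 stands for both and n = 4 wild-type captures. Cells entered with 500 or more genes and no more than 10% of UMIs from mitochondrial genes, which left 7790, 10496, 7029 and 3250 cells in WT replicates 1, 2, 4 and 5, and 1789 and 1111 in Prokr2Cre libraries 1 and 2. Cells were assigned to a class by counts of marker genes (a gate), which left 16.3% to 29.6% of the cells of a library without a class. Gated mesenchyme held 3402, 5401, 4557 and 1538 wild-type cells, and pericytes, the smallest of the 8 classes that were tested, held 99, 40, 25 and 10. Cells gated as cartilage, bone or pericytes also carried a median of 4 to 6 of the 10 mesenchyme markers, so these 3 classes are not fully separated from mesenchyme. Levels are CPM, the UMIs of a gene summed over a class in 1 library and scaled to the total UMIs of that sum. They are compared between classes for 1 gene at a time, not between genes. Fewer UMIs of a gene in a class can come from fewer cells that express it or from fewer molecules in each cell, and the CPM does not tell these apart.

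Semaphorins are guidance cues for axons, migrating cells and growing vessels. Class 3 semaphorins are secreted and are cleaved by proprotein convertases such as furin. Most of them bind neuropilins, encoded by Nrp1 and Nrp2, which pair with plexins of the A family to pass the signal into the cell. Sema3e differs in binding plexin-D1 (Plxnd1) without a neuropilin, and Sema7a acts through plexin-C1 (Plxnc1) and integrins that hold the beta 1 subunit. In the nose, Sema3a and its neuropilin receptors are known for guiding olfactory and vomeronasal axons and for the migration of gonadotropin-releasing hormone neurons out of the nose along the terminal nerve.

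The genes differ in size, and this tracked with the libraries. In GRCm38 (mm10, GENCODE M21 models) 4 members form a group on the plus strand of chromosome 5: Sema3d (12383385 to 12588948), Sema3a (13125414 to 13602565), Sema3e (14025276 to 14256689) and Sema3c (17574281 to 17730268). Sema3a lies 536.5 kb after Sema3d and Sema3e 422.7 kb after Sema3a, and these 4 genes span 156 kb to 477.2 kb each. The other 4 are short, at 11.56 kb to 28.98 kb: Sema3b (chromosome 9, 107597674 to 107609229, minus strand), Sema3f (chromosome 9, 107681500 to 107710475, minus strand, 72.27 kb from Sema3b), Sema3g (chromosome 14, 31217860 to 31230352, plus strand) and Sema7a (chromosome 9, 57940112 to 57962865, plus strand). Genes that span over 100 kb took 4.72% of the UMIs of mesenchyme in WT replicate 1 and 11.0% to 16.4% in WT replicates 2, 4 and 5, and the file headers name a different counting version for WT replicate 1 than for the other wild-type libraries. In Prokr2Cre libraries 1 and 2 the share was 6.01% and 15.4%, although their headers name the same version. In mesenchyme Sema3a, Sema3c, Sema3d and Sema3e were all lowest in WT replicate 1, and so was the short Sema3f. The part of this library difference in the levels was not tested. The class tests therefore compare classes within a library. The antisense gene Gm4128 lies inside Sema3e, and whether reads were counted by strand is not given in the sources used here.

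**Figure D1:**
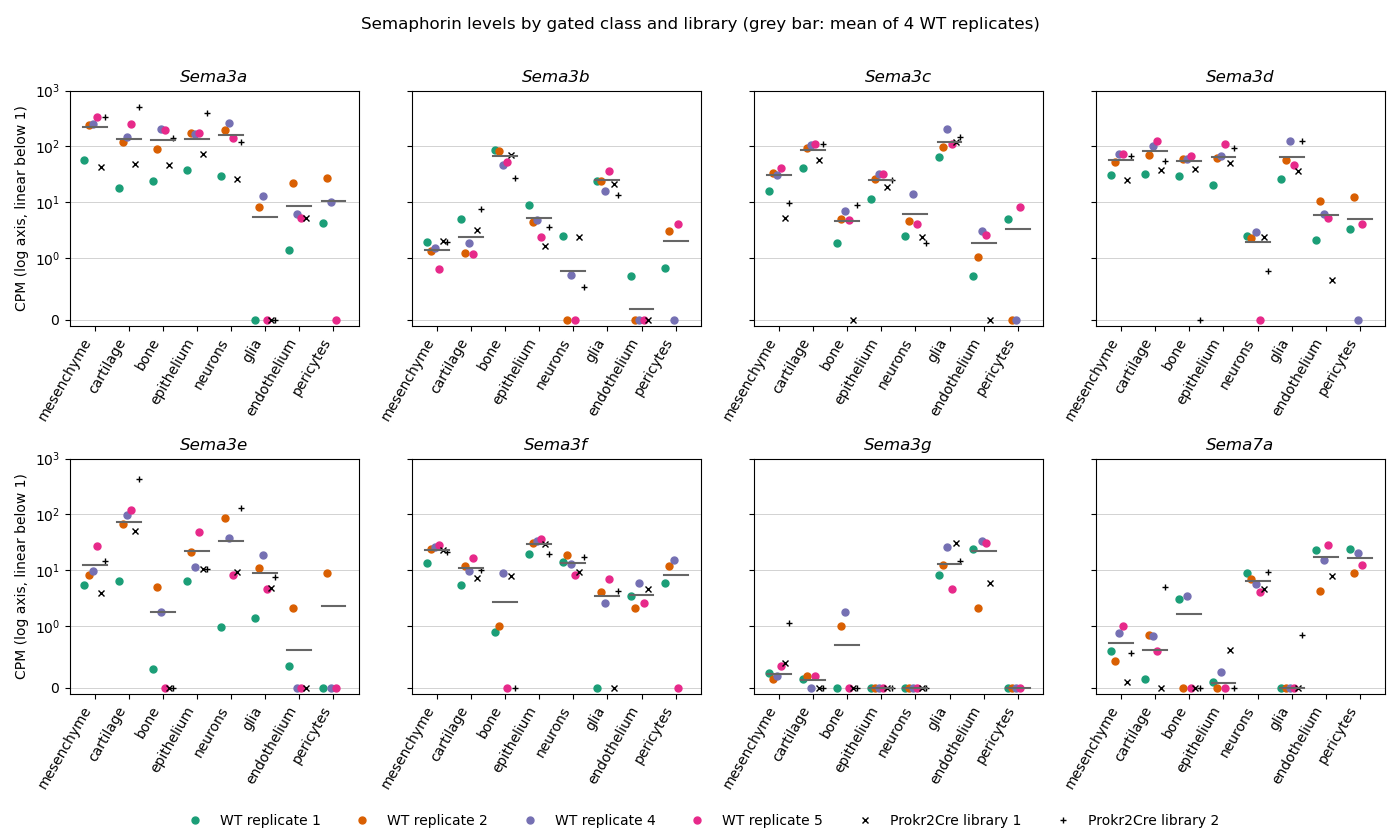
CPM of each of the 8 genes (1 panel per gene; vertical axis logarithmic, linear below 1 CPM) in the gated classes, with 1 coloured point per wild-type library, a grey bar for their mean, and a cross and a plus for Prokr2Cre libraries 1 and 2. Sema3b peaked in bone at 45.5 to 86.7 CPM in the wild-type libraries, Sema3g in endothelium and glia, and the long genes Sema3a, Sema3c, Sema3d and Sema3e sat lowest in WT replicate 1 in mesenchyme.

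All 8 members passed the filter on low counts in the fit of 8 classes, and each class was compared with mesenchyme (edgeR quasi-likelihood test on UMIs summed per library and class, library as a block, Benjamini-Hochberg adjusted over 12181 genes, called below 0.05). In neurons 2 members were higher and 3 lower than in mesenchyme, where 29.3% of all tested genes were higher and 29.7% lower. In glia 3 members were higher and 2 lower (15.2% and 19.0% of all genes), in epithelium 1 and 3 (26.1% and 27.6%), and in cartilage 2 and 2 (12.9% and 14.1%). In bone 1 was higher and 4 lower (17.9% and 19.4%), in endothelium 2 and 5 (22.3% and 27.1%), and in pericytes 1 and 4 (10.2% and 12.3%). The median log2 difference of the 8 members was −2.67 in endothelium and −2.52 in pericytes, against −0.11 and −0.14 over all tested genes, and it lay between −0.59 and 0.14 in the other 5 classes. With members that had no UMI in a class set to the bound that 3 counts give, it was −1.95 in pericytes, −0.52 in neurons and 0.30 in glia, and the same in the other 4. Of the 35 calls between a class and mesenchyme, 25 held under every one of 13 alternative settings, and the others are named with their member below.

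**Figure D2:**
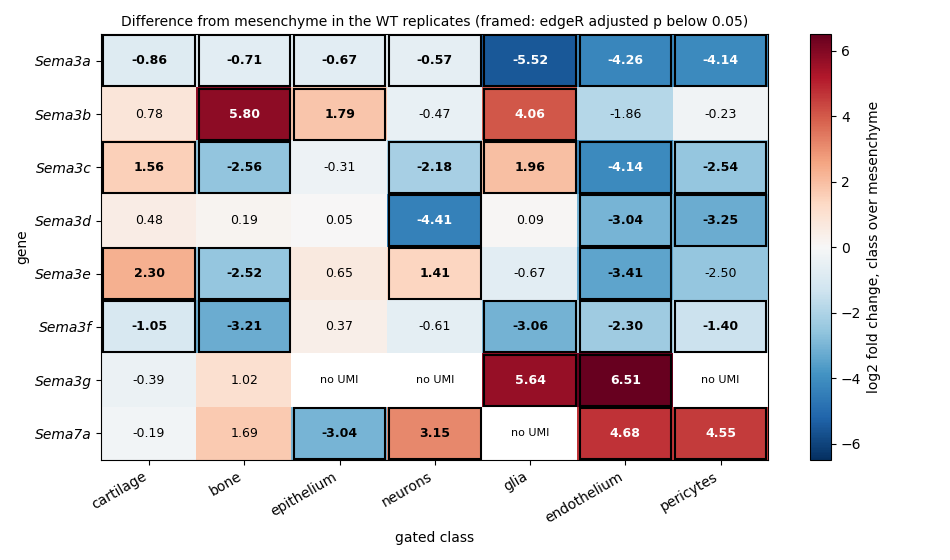
Log2 fold change of each member (rows) in each class (columns) over mesenchyme, as colour and printed value, from the edgeR fit on the wild-type libraries; frames mark an adjusted p below 0.05, and classes without a UMI of the gene have no value. Endothelium and pericytes were lower for Sema3a, Sema3c, Sema3d and Sema3f and higher for Sema7a, and bone stood 5.80 log2 units above mesenchyme for Sema3b.

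Sema3a, the neuropilin-1 ligand that repels many axons, had its highest mean in mesenchyme, lay near it in epithelium, neurons, cartilage and bone, and was low in glia and vessels. In mesenchyme it stood at 57.3, 241, 248 and 338 CPM in WT replicates 1, 2, 4 and 5 (221 ± 118, SD, n = 4). Glia held 0, 8.09, 13.1 and 0 CPM in the same order. Every glial value lay below the mesenchymal value of its own library, and the log2 difference was −5.52 ± 0.47 (SE; edgeR adjusted p = 5.25e-11).

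Endothelium, at 1.40, 21.8, 5.999 and 5.08 CPM of Sema3a, and pericytes, at 4.16, 27.2, 10.0 and 0 CPM, were lower than mesenchyme by similar amounts (log2 −4.26 ± 0.39 and −4.14 ± 0.45, SE; edgeR adjusted p = 9.71e-11 and 2.73e-08). Immune cells, a class set beside them as a reference for free RNA, held 6.27, 22.4, 30.2 and 5.74 CPM, and glia and endothelium lay below them in every wild-type library. The part of free RNA was not tested, and the 9 erythroid cells in each of WT replicates 2 and 4 held 83.6 and 259.8 CPM, from 5 and 18 UMIs. The 14 and 15 erythroid cells of WT replicates 1 and 5 held 5.49 to 12.6 CPM, from 2 and 1 UMIs. When every cell was thinned to 2000 UMIs, which left out 23 to 186 mesenchymal and 1 to 14 immune cells per library, 10.4% to 30.6% of mesenchymal cells had a Sema3a UMI. Of the immune cells 0.893%, 1.54% and 3.77% had one in WT replicates 1, 2 and 4, and 0 of 20 in WT replicate 5, which allows a share of up to 15.0%. Unthinned, the shares were 30.4% to 57.7% in mesenchyme (median 4662 to 10870 UMIs per cell) and 3.31% to 8.82% in immune cells (median 7850 to 12320). These medians count the 29742 genes present in every library.

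The other 4 classes lay closer to mesenchyme. Neurons held 29.95, 199, 259 and 140.0 CPM of Sema3a, epithelium 38.1, 175, 164 and 174, cartilage 18.2, 120.2, 147 and 246, and bone 24.0, 88.0, 208 and 194. These differed from mesenchyme by log2 −0.57 ± 0.24, −0.67 ± 0.22, −0.86 ± 0.22 and −0.71 ± 0.25 (SE; edgeR adjusted p = 0.044, 0.0112, 0.00343 and 0.0235). Neurons exceeded mesenchyme in WT replicate 4, and the other 15 values lay below the mesenchyme of their library. None of the 4 calls held under DESeq2 or without the library block. With the Prokr2Cre libraries added, the calls in epithelium (−0.27, adjusted p = 0.412), cartilage (−0.46, adjusted p = 0.235) and bone (−0.64, adjusted p = 0.0895) were lost. In Prokr2Cre libraries 1 and 2 Sema3a stood at 72.8 and 396 CPM in epithelium and 47.5 and 515 in cartilage, above the 43.2 and 331 of their mesenchyme. The call in neurons held under 5 of 13 alternatives. It was also lost without WT replicate 1 (−0.38), 2 (−0.65) or 5 (−0.38), without TMM (adjusted p = 0.0926), with the stricter cell filter (0.08997) and with gates of 1 more marker (0.0601). The call in bone was lost without replicate 1 (−0.57) or 2 (−0.58), and that in epithelium without replicate 4 (−0.63). In the order of mean levels, the 3 steps among neurons, epithelium, cartilage and bone were not called (edgeR adjusted p = 0.504 to 0.757).

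Sema3b, which signals through neuropilins and is known as a cue with growth-inhibiting properties, marked bone. Gated bone cells held 86.7, 82.9, 45.5 and 52.5 CPM in WT replicates 1, 2, 4 and 5 (66.9 ± 20.9, SD, n = 4), and mesenchyme held 1.92, 1.32, 1.53 and 0.82. The groups did not overlap, and the log2 difference of 5.80 ± 0.30 (SE; edgeR adjusted p = 2.01e-15) held under every alternative. In Prokr2Cre libraries 1 and 2, bone stood at 70.2 and 26.5 CPM, from 18 UMIs in 14 cells and 3 UMIs in 11 cells. After thinning to 2000 UMIs, 6.45% to 16.2% of bone cells and 0.132% to 0.403% of mesenchymal cells had a Sema3b UMI. Unthinned the shares were 35.2% to 49.0% and 0.648% to 1.56%, at a median of 8733 to 19040 UMIs per bone cell over the genes present in every library.

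Glia were the second class for Sema3b, at 23.7, 24.3, 15.7 and 36.5 CPM, or log2 4.06 ± 0.37 above mesenchyme (SE; edgeR adjusted p = 1.97e-10). Epithelium followed at 8.98, 4.44, 4.83 and 2.32 CPM, or log2 1.79 ± 0.30 above (adjusted p = 7.25e-06). In WT replicate 1, 5 of 778 epithelial cells held 77.2% of the 101 UMIs, and in WT replicate 2, 5 of 1153 held 59.7% of the 57. In WT replicate 4 the 19 UMIs were spread over 17 of 307 cells, and in WT replicate 5 the 8 UMIs over 7 of 232. The steps from bone to glia, glia to epithelium and epithelium to cartilage each passed the test (edgeR adjusted p = 6.46e-05, 4.34e-06 and 0.00860). Below cartilage no neighbouring classes were told apart. Neurons held 6 UMIs of Sema3b and endothelium 2 over the 4 wild-type libraries.

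Sema3c, a neuropilin ligand known for its part in neural crest and outflow tract development, was highest in glia and cartilage among the 8 tested classes. Muscle, a gated class that was not tested, held 18.1 CPM in WT replicate 1 and 114 in WT replicate 2. The second value came from 10 UMIs in 10 cells and lay above glia and cartilage of that library. Glia held 63.4, 98.5, 205 and 112 CPM in WT replicates 1, 2, 4 and 5, cartilage 41.4, 94.4, 104 and 110.0, and mesenchyme 15.7, 33.7, 31.1 and 41.7. Both classes lay above the mesenchyme of their own library in all 4 libraries, by log2 1.96 ± 0.18 and 1.56 ± 0.15 (SE; edgeR adjusted p = 2.04e-10 and 2.07e-09). Glia and cartilage were not told apart from each other (log2 difference 0.40 ± 0.17, adjusted p = 0.0711).

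The same order was seen in the Prokr2Cre libraries, with 118 and 149 CPM of Sema3c in glia, 56.8 and 112 in cartilage and 5.15 and 9.53 in mesenchyme. Neurons held 2.46, 4.59, 13.7 and 4.12 CPM in the wild-type libraries, bone 1.82, 5.05, 7.004 and 4.77, and endothelium 0.70, 1.04, 3.00 and 2.54. These were lower than mesenchyme by log2 −2.18, −2.56 and −4.14, with pericytes at −2.54 (edgeR adjusted p = 3.29e-05 or less). The level in epithelium, at 11.4 to 32.2 CPM, was not called (log2 −0.31 ± 0.16, adjusted p = 0.0957).

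Sema3d, best known for its roles in neural crest and vessel patterning, was spread over 5 classes at similar levels. Cartilage, epithelium, glia, mesenchyme and bone held means of 81.3, 65.2, 63.7, 57.0 and 53.8 CPM, and no neighbours in this order were told apart (edgeR adjusted p = 0.0598 to 0.935). Mesenchyme stood at 31.2, 52.8, 72.2 and 71.8 CPM in WT replicates 1, 2, 4 and 5. Neurons stood apart, at 2.46, 2.30, 2.88 and 0 CPM from 11 UMIs in all. Their difference from mesenchyme was log2 −4.41 ± 0.42 (SE; edgeR adjusted p = 1.46e-10), and they lay below it in 4 of 4 libraries.

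Endothelium and pericytes were also low in Sema3d, at 2.11, 10.4, 5.999 and 5.08 CPM and 3.33, 12.1, 0 and 4.09 CPM (log2 −3.04 ± 0.38 and −3.25 ± 0.49, SE; edgeR adjusted p = 5.26e-08 and 5.97e-06). The step from bone down to endothelium was the only one in the order that passed the test. Glia ran from 26.5 to 126 CPM between libraries, which is wider than their difference from mesenchyme. Sema3d thus separated neurons and vessels from the other 5 classes.

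Sema3e, the ligand of plexin-D1, had its highest mean in cartilage, which was not told apart from neurons (edgeR adjusted p = 0.0916). It stood there at 6.504, 66.4, 95.7 and 122 CPM in WT replicates 1, 2, 4 and 5, and in mesenchyme at 5.51, 8.15, 9.67 and 27.1. In WT replicate 1 the values nearly met, and in the other 3 libraries cartilage was far above mesenchyme. The log2 difference was 2.30 ± 0.39 (SE; edgeR adjusted p = 2.44e-05) and it held under every alternative. Prokr2Cre libraries 1 and 2 gave 49.7 and 423 CPM in cartilage against 3.84 and 14.7 in mesenchyme, the second from 28 cartilage cells. Of these 28 cells, 13 held the 166 Sema3e UMIs, and the top 5 cells held 75.9% of them. Sema3e is a long gene, and these libraries differ in their share of long genes (6.01% and 15.4%), so the values are read against the mesenchyme of the same library only.

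In neurons Sema3e came from few cells. The levels were 0.98, 86.1, 37.5 and 8.23 CPM in WT replicates 1, 2, 4 and 5, and the libraries overlapped with mesenchyme. The log2 difference of 1.41 ± 0.49 (SE; edgeR adjusted p = 0.0146) was lost without WT replicate 2 (0.33, adjusted p = 0.687) or 4 (1.24, adjusted p = 0.0967). It was 0.58 under DESeq2 (adjusted p = 0.586), was not called without the library block (adjusted p = 0.161) and turned to −0.52 (edgeR adjusted p = 0.479) when cells with high doublet scores were removed. Of 75 Sema3e UMIs in the neurons of WT replicate 2, 65 lay in 3 cells, and of 52 in WT replicate 4, 51 lay in 2 cells. WT replicates 1 and 5 held 2 UMIs each.

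Prokr2Cre library 2 held 495 Sema3e UMIs in its 195 neurons (130.1 CPM, against 14.7 in its mesenchyme). These neurons had a median of 19660 UMIs over all genes of the library, against 4082 to 8025 in the 4 wild-type libraries. Numbers of neurons past a set number of UMIs are therefore not compared between libraries. Of these UMIs, 450 lay in 35 neurons with at least 3 Sema3e UMIs each. Of the 35, 28 carried at least 3 of 6 terminal nerve markers (Gnrh1, Gal, Cntn2, Prph, Isl1 and Nhlh2), as did 56 of all 195. The terminal nerve is the bundle along which gonadotropin-releasing hormone neurons leave the nose. Neurons of this library with at most 1 of these markers held 28.2 CPM (exact Poisson 95% interval 17.4 to 43.1, counting error only), those with 2 held 51.8 (41.6 to 63.6) and those with 3 or more held 291 (262 to 321). Sema3a ran the other way in the same 3 sets, at 153, 150 and 57.5 CPM. The 5 wild-type neurons with at least 3 Sema3e UMIs held at least 3 of the markers in 2 cases. In WT replicate 2, neurons with at most 1 marker held 110.4 CPM of Sema3e, with 49 of their 53 UMIs in 1 cell. Those with 2 markers held 33.3 CPM, and those with 3 or more held 322.5, from 10 UMIs in 1 cell. In WT replicate 4 the same 3 sets held 1.35, 21.2 and 314 CPM, the last from 1 cell. WT replicate 1 had 22 neurons with 3 or more of the markers, and 1 of them held Sema3e UMIs. Prokr2Cre library 2 is 1 library with no replicate, the intervals cover counting error only, and its neurons were gated without these 6 genes.

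**Figure D3:**
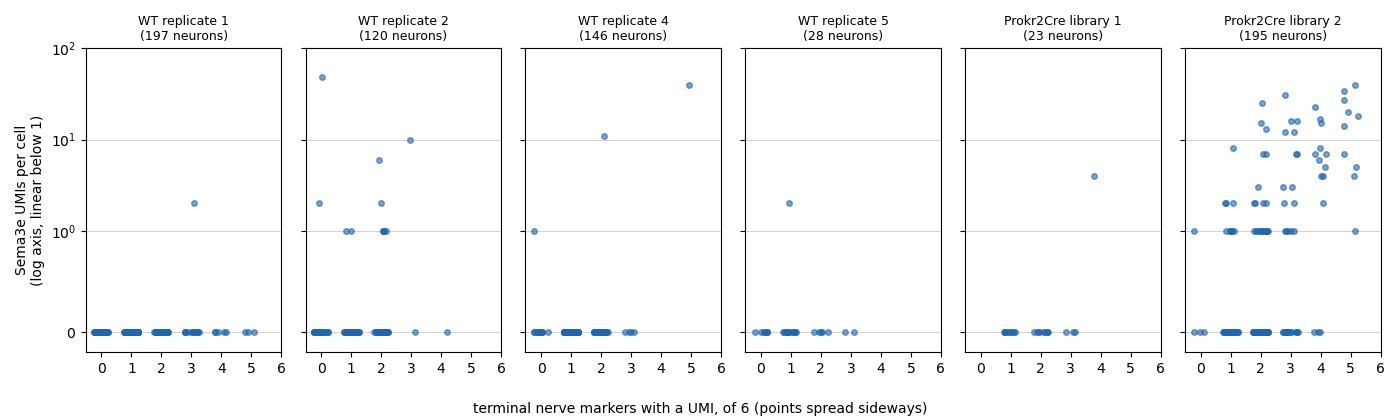
Sema3e UMIs per neuron (vertical axis logarithmic, linear below 1) against the number of 6 terminal nerve markers with a UMI (horizontal axis), with 1 point per cell and 1 panel per library. Most neurons sit at 0, and the 35 neurons of Prokr2Cre library 2 with at least 3 Sema3e UMIs lie mostly at 3 markers or more.

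Bone and endothelium held little Sema3e, with 7 and 3 UMIs over the wild-type libraries. Their log2 differences from mesenchyme, −2.52 ± 1.01 and −3.41 ± 1.29 (SE; edgeR adjusted p = 0.0487 and 0.0286), rest on these few molecules. The call in bone held under 7 of 13 alternatives. It was lost without WT replicate 1 (−2.05), 4 (−2.63) or 5 (−1.87), with gates of 1 more marker (−2.19, adjusted p = 0.201), with the stricter cell filter (adjusted p = 0.0554) and without the library block (adjusted p = 0.126). The call in endothelium was lost without replicate 1 (−3.24) or 5 (−2.95). No neighbouring classes in the order of Sema3e levels were told apart.

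Sema3f, a neuropilin-2 ligand that repels axons, had its highest means in epithelium and mesenchyme, followed by neurons and cartilage. Epithelium exceeded neurons (log2 0.98 ± 0.28, SE, edgeR adjusted p = 0.00448). Neurons and cartilage, at means of 13.3 and 10.8 CPM, were not told apart (edgeR adjusted p = 0.211). Epithelium stood at 19.3, 30.2, 32.8 and 36.0 CPM in WT replicates 1, 2, 4 and 5, mesenchyme at 13.4, 23.6, 26.4 and 27.9, and neurons at 13.7, 18.4, 13.0 and 8.23. Epithelium lay above mesenchyme in every library and neurons below it in 3 of 4, but neither difference was called (log2 0.37 ± 0.20 and −0.61 ± 0.28, SE; edgeR adjusted p = 0.121 and 0.0620). Glia, at 0, 4.05, 2.62 and 6.84 CPM, and bone, at 0.91, 1.01, 8.75 and 0 CPM, were lower than mesenchyme in all 4 libraries.

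Their log2 differences for Sema3f were −3.06 ± 0.49 and −3.21 ± 0.44 (SE; edgeR adjusted p = 7.69e-06 and 6.34e-07). Endothelium followed at −2.30 ± 0.40 and cartilage at −1.05 ± 0.21 (adjusted p = 1.69e-05 and 0.000245), and the call in cartilage was lost without the library block (−1.03, adjusted p = 0.127). Pericytes, at −1.40 ± 0.44 (adjusted p = 0.0185) from 14 UMIs, lost the call without WT replicate 1 (−1.43), 2 (−1.55) or 5 (−1.09), with the stricter cell filter (−1.06) and without the library block (−1.51). Bone and glia thus shared a low Sema3f level, and both held the highest Sema3b levels.

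Sema3g, a secreted semaphorin known from endothelium, was found in endothelium and glia. Endothelium held 23.5, 2.08, 33.0 and 30.5 CPM in WT replicates 1, 2, 4 and 5, from 67, 2, 11 and 12 UMIs, and mesenchyme held 0.24, 0.15, 0.19 and 0.35. WT replicate 2 was far below the other 3 endothelial values but still above its mesenchyme. The log2 difference was 6.51 ± 0.59 (SE; edgeR adjusted p = 4.37e-09), under every alternative called. Glia held 8.36, 12.1, 26.2 and 4.56 CPM and also lay above mesenchyme in 4 of 4 libraries (5.64 ± 0.65; adjusted p = 3.86e-07). Endothelium and glia were not told apart (log2 0.86 ± 0.56, edgeR adjusted p = 0.270).

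Mesenchyme held 22 Sema3g UMIs over the 4 wild-type libraries, 9 of them in the subset with Osr1 and Mab21l2 (0.50 to 1.54 CPM against 0.11 to 0.19 in the rest, with no test). Epithelium, neurons, pericytes and immune cells held 0 in all 4 wild-type libraries. The 31451227 UMIs of epithelium put it at least 2.31-fold below the pooled mesenchyme, taking 3 counts over the group as the floor. The edgeR call behind it (adjusted p = 0.0378) was lost without any 1 of the 4 replicates (adjusted p = 0.0578 to 0.144) and with the stricter cell filter (adjusted p = 0.0543). The depth in neurons and pericytes did not allow a bound below mesenchyme. Prokr2Cre libraries 1 and 2 held 30.8 and 14.5 CPM of Sema3g in glia, and their endothelium held 5.82 CPM in library 1 and 0 in the 2 cells of library 2.

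Sema7a, the membrane-anchored member, was found in both vessel classes and in neurons. Endothelium held 23.2, 4.15, 15.0 and 27.9 CPM in WT replicates 1, 2, 4 and 5, pericytes 24.1, 9.07, 20.04 and 12.3, neurons 8.84, 6.89, 5.76 and 4.12, and mesenchyme 0.59, 0.44, 0.89 and 1.00. None of the values in the first 3 classes overlapped with mesenchyme. The log2 differences were 4.68 ± 0.48, 4.55 ± 0.54 and 3.15 ± 0.53 (SE; edgeR adjusted p = 3.21e-09, 2.57e-07 and 9.40e-06), and each held under every alternative.

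Endothelium and pericytes were not told apart for Sema7a (edgeR adjusted p = 0.898), and pericytes were above endothelium in 3 of 4 libraries, while pericytes exceeded neurons (log2 1.40 ± 0.56, edgeR adjusted p = 0.0389). Epithelium held 2 UMIs in all and lay below mesenchyme (−3.04 ± 0.82, adjusted p = 0.00245). Glia held 0 UMIs in all 4 wild-type libraries. The depth of 2997207 glial UMIs did not allow a bound below the pooled mesenchyme, which held 70 UMIs of Sema7a.

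Because endothelium had the highest mean of both Sema3g and Sema7a, the stretch before each gene's first annotated base was searched for GGAA, the core of the motif bound by ETS factors, on both strands. The sequences are from RefSeq promoter windows on GRCm38.p6, plus strand, 5′ to 3′, cut before the first base that the gene annotation gives as transcribed, and capitals mark GGAA or its complement TTCC. The table held 6 of the 8 members and not Sema3b or Sema3f. The Sema3g stretch is chr14:31217623-31217859 and the Sema7a stretch is chr9:57939862-57940111.
Sema3g: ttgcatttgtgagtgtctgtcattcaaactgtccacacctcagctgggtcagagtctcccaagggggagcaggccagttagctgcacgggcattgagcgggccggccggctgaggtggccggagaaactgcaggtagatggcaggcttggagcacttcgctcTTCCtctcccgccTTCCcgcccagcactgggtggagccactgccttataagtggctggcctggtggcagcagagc
Sema7a: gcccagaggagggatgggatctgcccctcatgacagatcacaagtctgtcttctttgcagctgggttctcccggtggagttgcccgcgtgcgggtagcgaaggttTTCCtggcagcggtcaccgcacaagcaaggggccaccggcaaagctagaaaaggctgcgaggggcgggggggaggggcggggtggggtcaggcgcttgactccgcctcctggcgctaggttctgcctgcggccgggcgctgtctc
Sema3g held 2 matches in 237 bases and Sema7a 1 match in 250 bases. Of 32851 windows cut to the same length, 92.4% held at least 1 match and 74.2% at least 2 at the length for Sema3g, and 93.5% held at least 1 at the length for Sema7a. Most windows of these lengths therefore hold the motif, and a match is a description of the letters only.

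Within epithelium, stratified epithelium carried more Sema3c, Sema3d and Sema3e than the other epithelial cells. Its cells were gated by at least 2 of Krt5, Krt14, Krt15, Trp63 and Sfn. In gated stratified cells Sema3d stood at 34.0, 123, 152 and 154 CPM in WT replicates 1, 2, 4 and 5, and in the other epithelial cells at 5.75, 8.86, 15.99 and 13.4. Sema3e stood at 11.4, 42.2, 26.1 and 68.4 CPM against 1.44, 2.62, 2.05 and 3.82, and Sema3c at 17.8, 45.4, 63.5 and 40.5 against 4.85, 9.59, 12.3 and 13.4. The groups did not overlap for Sema3c, Sema3d or Sema3e. The log2 differences were 3.34 ± 0.16 for Sema3d, 3.75 ± 0.21 for Sema3e and 2.09 ± 0.16 for Sema3c (SE; edgeR adjusted p = 3.00e-07, 8.26e-07 and 3.67e-06).

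Of 6 members that passed the filter, 5 were called higher in stratified cells, where 13.2% of all tested genes were called higher. Sema3f was higher by 0.59 ± 0.13 (edgeR adjusted p = 0.00517; 0.51 and adjusted p = 0.0563 without WT replicate 2, and 0.58 and 0.160 without the library block) and Sema3a by 0.33 ± 0.11 (adjusted p = 0.0498). The Sema3a call held under 3 of 13 alternatives, was lost without replicate 2, 4 or 5 (0.22, 0.38 and 0.31) and under DESeq2 among others, and Sema3a was lower in stratified cells in WT replicate 1 (36.8 against 39.3 CPM). Sustentacular cells, the supporting cells of the olfactory epithelium, are part of the other side of that comparison. Against all other epithelium they were lower in Sema3c, Sema3d and Sema3e (log2 −2.41, −3.01 and −4.47; edgeR adjusted p = 9.32e-06, 1.46e-06 and 1.58e-06), 3 of 6 members, with 10.0% of all genes called lower. Their Sema3a level, at 48.03 to 189 CPM, overlapped with that of the other epithelial cells.

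Within mesenchyme the cells were split by pairs of marker genes, and a cell had to hold both genes of a pair. Dermal cells with Twist2 and Dpt carried Sema3c at 59.4, 186, 226 and 182 CPM in WT replicates 1, 2, 4 and 5, against 15.1, 32.7, 30.1 and 36.9 in the rest. All 4 dermal values lay above every value of the rest, and Sema3c was the 1 member called of 6 tested (log2 2.39 ± 0.18; edgeR adjusted p = 9.77e-29; 4.68% of all genes called). The dermal condensates marked by Sox2 and Sox18 together, the cell clusters under hair placodes, showed the opposite. They were measured in WT replicates 2, 4 and 5 and held 0 Sema3c UMIs of 368199, which is at least 3.60-fold below the pooled rest of mesenchyme.

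Sema3a was also lower in the condensate cells with Sox2 and Sox18, at 113, 40.8 and 143 CPM against 241, 249 and 340.0 (log2 −1.64 ± 0.30, SE; edgeR adjusted p = 3.72e-06). These 2 members were the called ones of 5 tested there, with 4.49% of all genes called. Fewer than 20 condensate cells entered per library (14, 18 and 14). The dermal cells with Twist2 and Dpt were also few, at 37, 31, 19 and 41.

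Cells with Pax9 and Mecom were the mesenchymal set with the highest Sema3a relative to its surroundings, at 99.1, 509, 552 and 721 CPM against 55.9, 232, 230 and 312 (log2 1.08 ± 0.07, SE; edgeR adjusted p = 1.28e-07). They were above the rest in 4 of 4 libraries. Sema3c ran the other way there (−0.95 ± 0.20, adjusted p = 0.00567), and Sema3d was 0.51 ± 0.12 higher (adjusted p = 0.0116), so 3 of 6 members were called, with 11.6% of all genes called. The Sema3d call held under 7 of 13 alternatives and was lost without WT replicate 2, 4 or 5 (0.41, 0.53 and 0.42), under DESeq2 (adjusted p = 0.0729), with the stricter cell filter (0.40, adjusted p = 0.0626) and without the library block.

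Cells with Osr1 and Mab21l2 were low in Sema3a, at 42.2, 122, 127 and 134 CPM against 58.7, 245, 269 and 374 (log2 −1.07 ± 0.11, SE; edgeR adjusted p = 7.12e-05), and in Sema3c (−0.71 ± 0.12, adjusted p = 0.00285). Both were below the rest in 4 of 4 libraries, and 6.13% of all genes were called. Cells with Shox2 and Barx1 were low in Sema3c (−1.21 ± 0.18, adjusted p = 0.00297), the 1 member called of 6, with 2.27% of all genes called. Their Sema3a level was above the rest in 4 of 4 libraries, at 60.8, 515, 674 and 346 CPM against 56.8, 237, 237 and 337, but was not called.

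Cells with Aldh1a2 and Cldn11, which mark the membranes around the brain, were low in Sema3e, at 2.69, 2.48, 0 and 7.57 CPM against 5.71, 8.41, 10.0 and 28.1 (log2 −1.93 ± 0.36, SE; edgeR adjusted p = 0.00148). Sema3c and Sema3d were lower there by −0.66 ± 0.18 and −0.57 ± 0.16 (adjusted p = 0.0252 and 0.0368), with 9.33% of all genes called. The call for Sema3c held under 4 of 13 alternatives and that for Sema3d under 5. The first was lost without WT replicate 1 (−0.64), 4 (−0.65) or 5 (−0.50), with the stricter cell filter (−0.62) and after removal by doublet score (−0.57), and the second without replicate 1 (−0.41), 2 (−0.54) or 4 (−0.49) and with the Prokr2Cre libraries added (−0.57), among others. Cells with Foxp2 and Erg were slightly higher in Sema3a (0.31 ± 0.08, adjusted p = 0.0130) and Sema3c (0.50 ± 0.15, adjusted p = 0.0206), with 14.9% of all genes called. The first held under 7 of 13 alternatives and was lost without replicate 2 (0.35), 4 (0.22) or 5 (0.28). The second held under 8 and was lost without replicate 4 (0.30) and after removal by doublet score (0.41). Both were lost under DESeq2 and with the Prokr2Cre libraries added. Without the library as a block, no call in the Twist2, Pax9 Mecom, Osr1 Mab21l2, Shox2 Barx1, Aldh1a2 Cldn11 and Foxp2 Erg subsets held, with Sema3c in Twist2 dermal cells nearest to the threshold (log2 2.44, edgeR adjusted p = 0.0537).

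**Figure D4:**
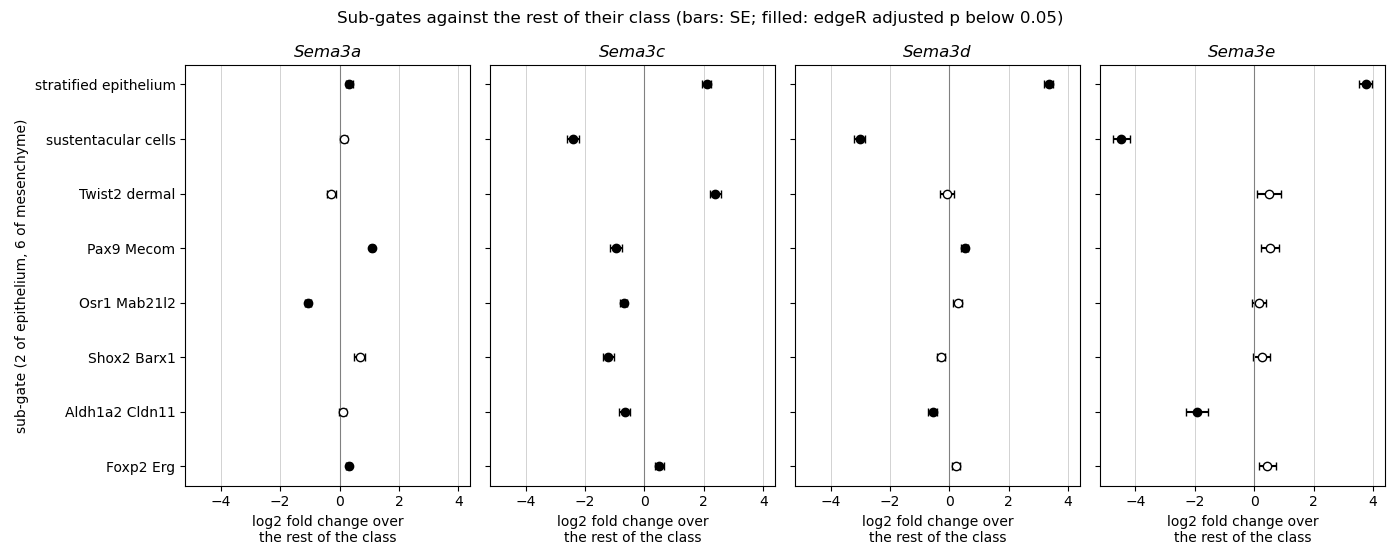
Log2 fold change of Sema3a, Sema3c, Sema3d and Sema3e (panels) in subsets of epithelium and mesenchyme (rows) over the rest of their class, with the SE as bars; filled points have an edgeR adjusted p below 0.05. Stratified epithelium and sustentacular cells lie on opposite sides for Sema3c, Sema3d and Sema3e, and Sema3c is highest over its surroundings in the Twist2 dermal subset (2.39).

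Within neurons Sema3a was called in both olfactory subsets, each tested against all other neurons. Olfactory precursors held 37.3, 261, 342 and 137 CPM in WT replicates 1, 2, 4 and 5, and the other neurons 25.9, 129, 114 and 143. Precursors were higher in 3 of 4 libraries (log2 0.99 ± 0.23, SE; edgeR adjusted p = 0.00956), and Sema3a was the only member to pass the filter, with 23.8% of all genes called. Olfactory neurons were lower than the other neurons, among them these precursors, in WT replicates 1, 2 and 4 (29.1, 105 and 93.8 CPM against 30.4, 228 and 294; log2 −1.06 ± 0.26, adjusted p = 0.0156), 1 of 2 members tested, with 15.8% of all genes called. WT replicate 5 had 7 olfactory neurons and did not enter. Both calls were lost without WT replicate 2 (0.94 and −0.99) or 4 (0.68 and −0.74), and without the library block. The difference in olfactory neurons was also not called under DESeq2 (adjusted p = 0.103), and it was −0.37 (edgeR adjusted p = 0.618) with the Prokr2Cre libraries added.

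The receptors of these ligands were spread unevenly over the classes. Nrp1 was highest in endothelium (326 ± 165 CPM, SD, n = 4), followed by pericytes (188 ± 85.2) and glia (117 ± 71.1), with mesenchyme at 87.3 ± 28.8, neurons at 83.9 ± 4.85 and epithelium at 7.05 ± 2.41. Nrp2 stood at 269 ± 83.6 CPM in bone, 241 ± 84.2 in endothelium, 146 ± 89.4 in neurons and 8.76 ± 4.10 in epithelium. Against mesenchyme, epithelium was lower in Nrp1 and Nrp2 by log2 −3.62 and −3.85 (edgeR adjusted p = 2.01e-14 and 1.54e-13).

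Plxnd1, the receptor for Sema3e, stood at 370.2 ± 114 CPM in endothelium, 48.9 ± 18.2 in pericytes and 7.36 ± 1.29 in mesenchyme (endothelium against mesenchyme log2 5.77 ± 0.21, SE; edgeR adjusted p = 1.18e-19). Endothelium held 3 Sema3e UMIs over the 4 wild-type libraries, a mean of 0.61 CPM. Plxnc1, the receptor for Sema7a, was higher in neurons than in mesenchyme (21.9 ± 15.3 against 8.74 ± 2.51 CPM; log2 1.23 ± 0.36, adjusted p = 0.00413), and neurons also held Sema7a. Over the 12 listed receptors and partners, 3 were higher and 3 lower in neurons (29.3% and 29.7% of all tested genes), 6 and 2 in glia (15.2% and 19.0%), 2 and 7 in epithelium (26.1% and 27.6%) and 1 and 4 in cartilage (12.9% and 14.1%). They were 2 and 4 in bone (17.9% and 19.4%), 5 and 2 in endothelium (22.3% and 27.1%) and 4 and 2 in pericytes (10.2% and 12.3%), so neurons lay near the share of all genes. The adhesion molecules L1cam and Chl1, which bind neuropilins in cis, had the largest called differences in glia (log2 6.07 and 7.21), and L1cam did so in neurons (5.14), while Itga1, an integrin subunit, led in pericytes (5.42).

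**Figure D5:**
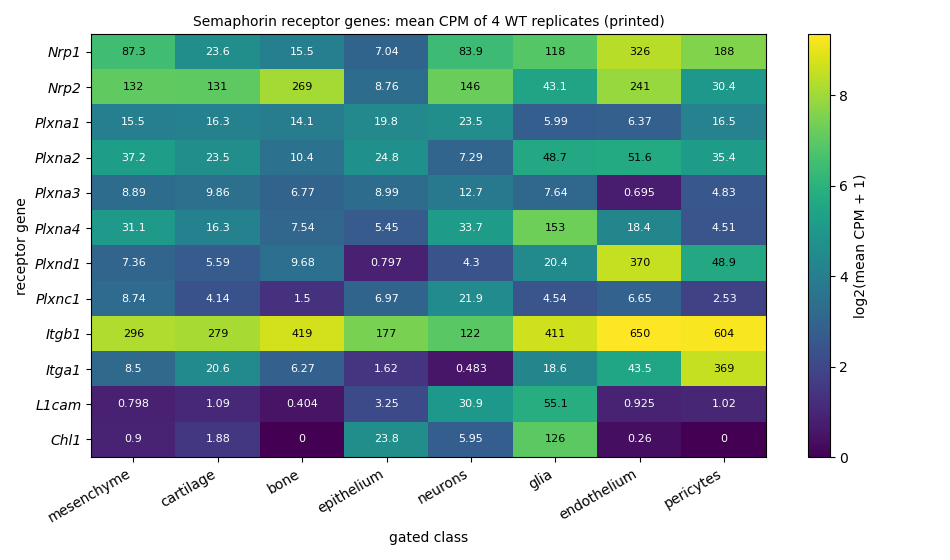
Mean CPM over the 4 wild-type libraries of the 12 listed receptors and partners (rows) in the gated classes (columns), printed in each cell and coloured by log2(mean CPM + 1). Plxnd1 and Nrp1 are high in endothelium, at 370.2 and 326 CPM, and both neuropilins have their lowest means in epithelium, at 7.05 and 8.76 CPM.

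Genes that act after the receptor, such as the collapsin response mediators (Crmp1 and the Dpysl genes) and the Mical oxidases, were counted from a list of 14, of which 13 were tested. In neurons 9 were higher and 3 lower (29.3% and 29.7% of all tested genes), led by Dpysl5 (log2 6.67), Crmp1 (5.14) and Mical2 (4.74). In glia 8 were higher (15.2%) and the other 5 were not called, and in epithelium 3 were higher and 8 lower (26.1% and 27.6%). In cartilage 3 and 4 were higher and lower (12.9% and 14.1%), in bone 6 and 3 (17.9% and 19.4%), in endothelium 5 and 3 (22.3% and 27.1%) and in pericytes 4 and 2 (10.2% and 12.3%). The list's median log2 difference was 1.27 in neurons, 0.80 in glia and −0.77 in epithelium, against −0.03, −0.08 and −0.01 over all tested genes. Among 4 proprotein convertases, the enzymes that process class 3 semaphorins, 2 were higher and 1 lower in bone (17.9% and 19.4% of all tested genes), 2 and 0 in cartilage (12.9% and 14.1%) and 1 and 1 in endothelium (22.3% and 27.1%). The convertases were lower in 3 cases in neurons (29.7%), 3 in glia (19.0%), 2 in epithelium (27.6%) and 1 in pericytes (12.3%), with the rest not called. Pcsk6 led in bone (3.65) and cartilage (1.01), and Furin was higher by 0.82 and 0.57. Pcsk5 was lower than in mesenchyme in neurons (−3.06), glia (−2.42) and epithelium (−2.88).

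The membrane-bound and transmembrane semaphorins of classes 4 to 6 served as a comparison, with 9 of 12 tested. They were higher and lower in 5 and 2 cases in neurons (29.3% and 29.7% of all tested genes), 2 and 4 in glia (15.2% and 19.0%), 2 and 6 in epithelium (26.1% and 27.6%) and 1 and 3 in cartilage (12.9% and 14.1%). In bone they were 3 and 3 (17.9% and 19.4%), in endothelium 3 and 5 (22.3% and 27.1%) and in pericytes 2 and 1 (10.2% and 12.3%). Sema5a and Sema5b, which mesenchyme held, were lower in neurons (log2 −2.95 and −2.19), glia (−3.94 and −3.00) and epithelium (−2.53 and −2.17). Sema4d was higher in bone (2.61) and Sema6d in endothelium (2.98). In pericytes Sema5b was higher (3.48), where Sema3a, Sema3c, Sema3d and Sema3f were lower.

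The genes most like each member over the 32 sums of wild-type library and class were taken among 11237 genes with a mean of at least 5 CPM, by Pearson correlation of log2(CPM + 1). The sums share libraries, depth and gene length effects, so the values are a description. They were Nfxl1 for Sema3a (r = 0.857), Lpar3 for Sema3b (0.873), Moxd1 for Sema3c (0.842), Nog for Sema3d (0.842), Slc35d1 for Sema3e (0.803), Rmst for Sema3f (0.783), Fgd5 for Sema3g (0.882) and Gja4 for Sema7a (0.851). Eya4 was among the first 3 for both Sema3a (0.843) and Sema3e.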

How the data were processed

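The submitters' processing notes name Cell Ranger 4, Seurat 4.3.0 and mm10; the file headers name Cell Ranger 6.0.1 (WT replicate 1), 7.0.0 (the other wild-type libraries) and 6.1.2 (both Prokr2Cre libraries). The deposited values are raw UMI counts per gene and cell, per the file headers, with no normalization by the authors; whether intronic reads were counted is not given in the sources used here. The members, gene lists and tests were chosen with earlier results of these data known, and the number of markers a gate asks for was set after seeing how many markers of other classes the gated cells carried.

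WT replicate 3 was left out because its barcodes are those of replicate 4. The libraries held 16773781 to 89800259 UMIs. Cells were gated by at least 3 of a class's markers (5 for cartilage, bone and pericytes, which share mesenchymal genes). They also needed at least 2 more than any rival class other than mesenchyme. Against mesenchyme, cartilage, bone and pericytes had no condition, and the other classes needed only more markers than mesenchyme had. Mesenchyme asked for at least 3 of its markers and fewer than 3 of every other class. No doublets were removed in the main comparison. Cells with at least 3 markers of a class but a lead below 2 over the next, mesenchyme not counted, were left out. Removal by Scrublet score is an alternative. The subsets of a class ask for UMIs of both genes of a pair, or of at least 2 markers of a longer list. UMIs were summed per library and class and tested with edgeR 4.0.16 in R 4.3.3 (quasi-likelihood test, TMM, filterByExpr, at least 10 cells per sum), with the library as a block because classes of 1 library come from 1 suspension. Genes used in the gates were not tested. Standard errors are the log2 fold change divided by the root of the F statistic. The 3 genes of largest absolute difference among those called could be named from each list. On simulated counts of neurons against mesenchyme (11535 genes), 31 of 100 genes changed by 1 log2 unit and 97 of 100 changed by 2 were called, with 2 false calls among 130. For stratified against other epithelium (11961 genes) these were 66 of 100 and 100 of 100, with 8 false calls among 174. P-values set a class difference against its variation over the captures, after the block has taken out the level of each capture. The estimate of that variation draws partly on other genes, so it is not the spread of 1 gene between 4 captures. The labels describe the captures as separate noses of 1 strain. Intervals and floors cover counting error only.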

Additional observations from a re-analysis of the deposited data

Results flagged for a closer look

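In groups of 4 wild-type libraries, the gap between the highest or lowest library and its nearest neighbour was set against the whole range, and 5 of 60 groups of a member and a class had 1 library apart by Dixon's critical value for 4 samples. Chance flags about 1 in 20 groups. WT replicate 1 held 38.1 CPM of Sema3a in epithelium, while WT replicates 2, 4 and 5 held 175, 164 and 174. WT replicate 4 held 8.75 CPM of Sema3f in bone, and the other 3 held 0 to 1.01 CPM. In the other 3 groups at least 2 of the 4 libraries are at 0. Sema3b in endothelium was seen in WT replicate 1 (0.70 CPM) and in no other wild-type library, Sema3e in pericytes in WT replicate 2 (9.07 CPM) and in no other, and Sema3e in endothelium stood at 2.08 CPM in WT replicate 2 and at 0 to 0.35 CPM in the others.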

How the results depend on the processing

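Each count was recomputed under 13 alternatives, and 33 of the 59 called differences, 25 of the 35 between a class and mesenchyme among them, kept their direction and their call in all that could be run (12 for the 2 Sox18 dermal condensate calls, 13 for the others). Among those 25 the widest ranges were those of Sema7a in epithelium (−3.72 to −1.60), Sema3d in neurons (−5.26 to −3.61) and Sema3f in bone (−4.12 to −2.49). The library block compares classes of the same suspension, and no replicate block left 35 of the 59 calls. DESeq2 kept 47, edgeR without TMM 55 and no filter on low counts 59. Leaving out 1 replicate kept 47 to 51, WT replicate 3 in place of 4 kept 56, adding the Prokr2Cre libraries 52, a stricter cell filter 52, gates with 1 more marker 56 and removal by Scrublet score 53 of 57. The 1 reversal was Sema3e in neurons against mesenchyme, 1.41 to −0.52 (edgeR adjusted p = 0.479) after removal by Scrublet score. The median of all genes against mesenchyme was −0.08 in bone and −0.11 in endothelium with TMM, and −0.33 and −0.28 without it.

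Without the replicate block the members called fell to 3 in neurons (from 5), 2 in cartilage (from 4), 3 in bone (from 5) and 3 in stratified epithelium (from 5). In the same fits they fell to 0 in olfactory neurons, olfactory precursors, the Twist2 dermal, Pax9 Mecom, Osr1 Mab21l2, Shox2 Barx1, Aldh1a2 Cldn11 and Foxp2 Erg subsets (from 1, 1, 1, 3, 2, 1, 3 and 2). DESeq2 called 3 in neurons, 0 in olfactory neurons, 2 in olfactory precursors, 1 in Aldh1a2 Cldn11 and 0 in Foxp2 Erg. Without a filter on low counts 2 were called in olfactory precursors and 2 in Shox2 Barx1, and edgeR without TMM called 1 in Aldh1a2 Cldn11. WT replicate 3 in place of replicate 4 gave 2 in olfactory neurons and 1 in Aldh1a2 Cldn11. In Foxp2 Erg 0 were called with the Prokr2Cre libraries added and 1 after removal by Scrublet score. Leaving out each replicate in turn gave 3 to 5 in neurons, 2 to 4 in epithelium, 3 to 5 in bone, 0 to 1 in olfactory neurons, 0 to 1 in olfactory precursors, 3 to 5 in stratified epithelium, 1 to 2 in Shox2 Barx1, 1 to 2 in Aldh1a2 Cldn11 and 0 to 2 in Foxp2 Erg. The cause of these changes was not tested. Classes of 10 to 196 cells per library limit what depth can show for pericytes, endothelium, glia and bone, where Sema3e and Sema3g rest on few UMIs.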
